A study of Mus musculus with 6 samples.

Results

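The MAP kinase phosphatases and the Sprouty and Spred proteins are the feedback brakes of MAP kinase signalling, and 10 of their genes were examined here, chosen by symbol from the 24940 genes of the deposited expression table. They comprise 3 phosphatases that act on several MAP kinases (Dusp1, Dusp2 and Dusp4), 3 phosphatases selective for ERK (Dusp5, Dusp6 and Dusp7), and 4 inhibitors of the Ras-ERK route (Spry1, Spry2, Spry4 and Spred1). All 10 symbols were found, each on 1 row. The RNA came from mouse bone marrow-derived macrophages (BMMs), which were grown from marrow of C57BL/6 mice aged 6 to 8 weeks according to the labels and serve as osteoclast precursors. M-CSF was present in all cultures, at 30 ng/mL over 3 days. The -R cultures received M-CSF alone, the +R cultures also received RANKL at 100 ng/mL, and the R+LE cultures received RANKL at 100 ng/mL and LE at 10 μg/mL. LE is a methanol extract of the leaves of Abeliophyllum distichum, a shrub of the olive family. There were 2 libraries in each of the 3 groups, and no group with LE and without RANKL, so an action of LE that does not depend on RANKL cannot be told apart. The paper describes ICR mice instead of C57BL/6, and neither it nor the labels state whether replicates came from separate mice, so the p-values measure only the spread between these libraries.

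In this signalling system, ERK, p38 and JNK are switched on by phosphorylation of a threonine and a tyrosine. The dual-specificity phosphatases remove both phosphates. Dusp1, Dusp2, Dusp4 and Dusp5 encode nuclear enzymes, whereas Dusp6 and Dusp7 encode cytoplasmic ones. Sprouty and Spred proteins act upstream, between the receptor, Ras and Raf. Many of these genes are themselves switched on by ERK activity, so their mRNA is widely used as a readout of ERK output. In osteoclast precursors both M-CSF and RANKL activate ERK.

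Reads on exons were deposited as RPKM, scaled to transcript length and to the mapped reads of the library. Between 29390200 and 34846368 mapped reads per library were inferred from the values. The reads recovered on genes were between 22610422 and 27462888 per library. The Rn45s entry, the precursor of ribosomal RNA, took between 10.9% and 13.5% of gene reads in the libraries with RANKL, against 4.97% and 6.83% in -R. The 9 osteoclast markers, all detected, summed to between 43.4 and 44.999 RPKM in -R, between 1894 and 2161 in +R and between 339.6 and 392.9 in R+LE. The 7 macrophage markers summed to between 6717 and 7302 RPKM in -R, between 2689 and 3453 in +R and between 3760 and 4203 in R+LE. The 7 neutrophil markers summed to between 15.6 and 17.3 RPKM in -R and to at most 2.53 RPKM in any other library, and the 10 stromal markers to between 9.14 and 18.1 RPKM in all 6. All 4 erythroid markers were at 0 throughout, and the sums of the T cell, B cell, NK cell, dendritic, mast cell, endothelial and megakaryocyte markers stayed at or below 2.07 RPKM. The part of these shifts in the changes of the feedback genes was not tested. In bulk RNA, fewer cells of a type and less RNA per cell cannot be told apart.

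Since several of these genes moved together, the 250 bases before the RefSeq start site of the members that changed at least 2-fold with RANKL are shown (build GRCm38.p6, 5′ to 3′ on the strand of the gene). Capitals mark matches, on either strand, to a cyclic AMP response element (CRE, TGACGTCA), a CRE core (TGACG), an AP-1 site (TGANTCA), an E-box (CACGTG), an EGR site (GCGTGGGCG or GCGGGGGCG), an NFAT core (TGGAAA) or an SRF CArG box. A full CRE also holds the core on both strands. Dusp1, Dusp5 and Dusp6 were lower in +R, and Dusp2, Spry1 and Spred1 were higher.
Dusp1, chr17:26508473-26508722, minus strand: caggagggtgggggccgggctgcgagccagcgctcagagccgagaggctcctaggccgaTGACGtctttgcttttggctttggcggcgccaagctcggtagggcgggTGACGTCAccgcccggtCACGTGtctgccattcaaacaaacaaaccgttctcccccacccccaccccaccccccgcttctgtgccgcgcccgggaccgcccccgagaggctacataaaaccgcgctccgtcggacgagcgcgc
Dusp5, chr19:53528895-53529144, plus strand: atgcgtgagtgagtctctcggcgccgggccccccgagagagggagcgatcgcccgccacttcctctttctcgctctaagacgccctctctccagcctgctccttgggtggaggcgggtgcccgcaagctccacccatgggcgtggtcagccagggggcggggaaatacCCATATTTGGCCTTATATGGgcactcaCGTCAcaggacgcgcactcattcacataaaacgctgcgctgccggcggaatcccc
Dusp6, chr10:99262981-99263230, plus strand: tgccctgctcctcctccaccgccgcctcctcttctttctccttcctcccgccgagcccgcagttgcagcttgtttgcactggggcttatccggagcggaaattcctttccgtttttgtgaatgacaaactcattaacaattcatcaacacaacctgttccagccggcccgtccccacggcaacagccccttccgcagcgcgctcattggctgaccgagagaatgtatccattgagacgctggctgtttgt
Dusp2, chr2:127335909-127336158, plus strand: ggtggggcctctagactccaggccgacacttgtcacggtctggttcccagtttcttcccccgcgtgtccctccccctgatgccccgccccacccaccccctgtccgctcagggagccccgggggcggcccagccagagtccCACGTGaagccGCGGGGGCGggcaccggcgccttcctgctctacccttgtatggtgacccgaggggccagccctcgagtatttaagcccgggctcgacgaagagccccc
Spry1, chr3:37639697-37639946, plus strand: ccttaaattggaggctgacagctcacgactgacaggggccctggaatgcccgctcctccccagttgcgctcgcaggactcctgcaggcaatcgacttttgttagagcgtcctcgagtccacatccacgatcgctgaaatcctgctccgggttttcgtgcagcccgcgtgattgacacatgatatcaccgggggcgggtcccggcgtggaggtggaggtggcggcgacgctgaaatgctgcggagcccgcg
Spred1, chr2:117120821-117121070, plus strand: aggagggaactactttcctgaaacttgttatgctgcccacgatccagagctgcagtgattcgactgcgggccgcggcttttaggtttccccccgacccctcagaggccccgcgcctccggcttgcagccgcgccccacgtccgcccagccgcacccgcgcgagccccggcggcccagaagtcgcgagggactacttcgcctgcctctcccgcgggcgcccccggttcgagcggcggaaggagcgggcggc

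The windows with matches were those of Dusp1, Dusp2 and Dusp5. Dusp1 held a full CRE, whose bases lie at positions -143 to -136 from the start site, a further CRE core and an E-box. A full CRE was found in 1.55% of all 32851 windows of this length in the table, a CRE core in 17.8% and an E-box in 6.02%. Dusp5 held 2 adjacent CArG boxes, a motif present in 1.47% of windows, and a CRE core. The Dusp5 window lies before a start site 173 bases upstream of that of the counted transcript. In Dusp2 there was an EGR site, which 3.06% of windows contain, and an E-box. None of these letters occurred in the windows of Dusp6, Spry1 and Spred1, as was the case for 55.6% of all windows. Windows were found for 8 members, without Dusp4 and Spry4, and those of Dusp7 and Spry2 also had no match. AP-1 sites occurred in 6.75% of all windows and NFAT cores in 18.6%, and in none of the 8. The windows of Dusp1, Dusp2 and Dusp5 hold 68.4%, 70.4% and 64% G and C, against a median of 52.4% in all windows. Those of the members without a match hold between 56.4% (Dusp6) and 77.2% (Dusp7) G and C. The shares given were not matched for this content. A match describes the letters of the window and not occupancy by a factor.

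To examine how RANKL changed the feedback genes, +R was compared with -R. Of the 9 members with a mean of at least 0.5 RPKM, 5 fell, 3 rose and 1 did not pass the test, which was an adjusted p-value (Benjamini-Hochberg) below 0.05 in limma over all 11595 genes tested. By comparison, 45.4% of all genes passed, with 21.5% lower and 23.9% higher. The ERK-selective phosphatases among the members all fell, the other member phosphatases went both ways, and the Sprouty and Spred genes that passed both rose. With the further requirement of a 2-fold change, 3 members were lower and 3 were higher, against 8.92% and 6.58% of all genes, or 15.5% in either direction. Spry1 reached the filter only through its level in +R, so its difference was favoured by the filter, and without it 5 of 8 members fell and 2 rose. The libraries of -R and +R did not overlap for 8 of the 9 tested members, against 75.2% of all genes tested. For 1 gene and 2 libraries a group, the smallest p of an exact permutation test (two-sided) is 0.333, and the calls therefore depend on the variance that limma shares between genes.

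**Figure D1:**
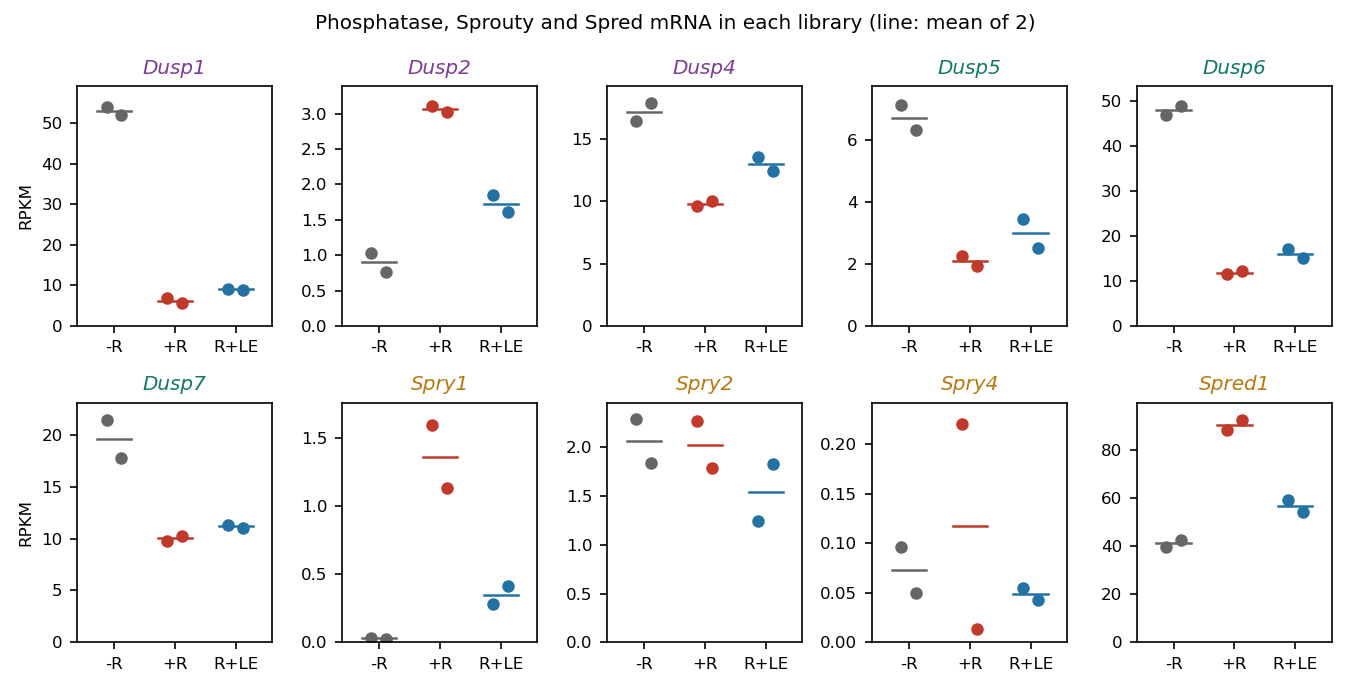
RPKM (y axis, linear, from 0) of the 10 feedback genes in the 2 libraries of -R (grey), +R (red) and R+LE (blue), with a line at the mean of each group. Gene names are purple for phosphatases acting on several MAP kinases, green for ERK-selective phosphatases and brown for Sprouty and Spred genes. Dusp1 and Dusp6 drop from about 50 RPKM in -R to under 20 in both groups with RANKL, whereas Spred1, Spry1 and Dusp2 are highest in +R.

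Among the phosphatases acting on several MAP kinases, Dusp1 showed the largest fall of any member. Dusp1 encodes MKP-1, which acts on p38 and JNK as well as ERK, and lies on chromosome 17 of mm10 from 26505591 to 26508472. It was at 53.9 and 52.1 RPKM in -R, 6.81 and 5.65 RPKM in +R, and 9.16 and 8.91 RPKM in R+LE. The -R libraries thus stood far above the other 4, and the R+LE pair lay above the +R pair. Its log2 fold change from -R to +R was -3.00 (standard error 0.14, adjusted p = 1.88e-10 in limma), a 7.98-fold fall on the log2(RPKM + 0.5) scale, which understates changes of genes with low values. Dusp1 rested on 3069 and 3514 reads in -R and on 405 and 336 reads in +R.

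Dusp2, which encodes a nuclear phosphatase known from activated immune cells (chromosome 2, 127336159 to 127338377), moved the other way. Its values were 1.03 and 0.766 RPKM in -R, 3.11 and 3.03 RPKM in +R, and 1.85 and 1.61 RPKM in R+LE. All 3 pairs were apart, with +R highest and R+LE in between. The log2 fold change of Dusp2 with RANKL was 1.36 (standard error 0.18, adjusted p = 1.55e-05 in limma). Dusp4, which encodes MKP-2 and lies on chromosome 8 from 34807610 to 34819894, fell by less than 2-fold. It was at 16.4 and 17.9 RPKM in -R, 9.63 and 10.0 RPKM in +R, and 13.6 and 12.5 RPKM in R+LE. Here too the pairs did not overlap, with +R lowest, and the log2 fold change with RANKL was -0.77 (standard error 0.13, adjusted p = 0.000243 in limma).

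Of the ERK-selective phosphatases, Dusp6 changed most with RANKL. It encodes MKP-3, the cytoplasmic phosphatase most often used as a marker of ERK activity (chromosome 10, 99263231 to 99267489). The values of Dusp6 were 46.9 and 48.9 RPKM in -R, 11.5 and 12.2 RPKM in +R, and 17.0 and 15.0 RPKM in R+LE. Both groups with RANKL were far below -R, and R+LE was above +R in both libraries. From -R to +R the log2 fold change of Dusp6 was -1.97 (standard error 0.14, adjusted p = 1.78e-08 in limma). Dusp5, whose nuclear product binds and anchors ERK, lies on chromosome 19, where the counted transcript runs from 53529318 to 53541322. It was at 7.10 and 6.31 RPKM in -R, 2.27 and 1.93 RPKM in +R, and 3.44 and 2.51 RPKM in R+LE. The order of the groups was that of Dusp6, but the 2 R+LE libraries lay farther apart relative to their level. The log2 fold change of Dusp5 with RANKL was -1.47 (standard error 0.17, adjusted p = 3.56e-06 in limma). The counted Dusp5 transcript is 1150 nt long, against 2473 exon bases in GENCODE, of which 547 are shared with an exon of AC137853.2 on the other strand. Whether the shared bases lie within the counted transcript was not checked. The counting ignored strand, so reads from any shared bases that were counted could not be assigned to either gene.

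Dusp7, a cytoplasmic relative of Dusp6 on chromosome 9 from 106368632 to 106375723, fell by slightly under 2-fold. It was at 21.4 and 17.8 RPKM in -R, 9.78 and 10.2 RPKM in +R, and 11.3 and 11.04 RPKM in R+LE. Both groups with RANKL lay well below -R and close to each other. For Dusp7 the log2 fold change with RANKL was -0.93 (standard error 0.14, adjusted p = 6.41e-05 in limma).

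Spred1, which encodes an adaptor that brings the Ras inactivator neurofibromin to the membrane, was the most abundant member after RANKL. It lies on chromosome 2 from 117121071 to 117182277. Spred1 was at 39.8 and 42.5 RPKM in -R, 88.2 and 92.3 RPKM in +R, and 59.1 and 54.3 RPKM in R+LE. The 3 pairs were clearly apart, with +R highest. With RANKL the log2 fold change of Spred1 was 1.12 (standard error 0.14, adjusted p = 1.08e-05 in limma), on 7371 to 17871 reads per library.

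Spry1 (chromosome 3, 37639947 to 37644599), a Sprouty gene whose product restrains receptor tyrosine kinase signalling, was close to absent without RANKL. In -R it was at 0.032 and 0.027 RPKM, from 2 reads in each library. The +R libraries were at 1.60 and 1.13 RPKM (106 and 75 reads), and those of R+LE at 0.279 and 0.411 RPKM (19 and 27 reads). The +R pair was highest and the -R pair lowest, without overlap. Per mapped read, Spry1 was 47.3 times as high in +R as in -R, with a 95% exact interval from 18.2 to 175.6 that covers counting error only. The log2 fold change on the log2(RPKM + 0.5) scale was 1.81 (standard error 0.24, adjusted p = 1.87e-05 in limma), and it was 5.23 when recovered reads were tested with voom. Spry1 shares 255 of 2451 exon bases with Gm42922 on the other strand.

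Spry2 and Spry4 are the other Sprouty genes, and both are common ERK targets in other cells. Spry2 (chromosome 14, 105891947 to 105896819) was at 2.29 and 1.83 RPKM in -R, 2.27 and 1.78 RPKM in +R, and 1.25 and 1.83 RPKM in R+LE. The -R and +R libraries overlapped almost fully, and the log2 fold change with RANKL was -0.02 (adjusted p = 0.939 in limma) with a 95% interval from -0.44 to 0.39. Its sign was positive when Rn45s was left out of the depth. Spry4 (chromosome 18) was covered by 13 and 8 reads in -R, by 31 and 2 reads in +R, and by 8 and 6 reads in R+LE. The 2 +R libraries held both the highest and the lowest value of Spry4, and at a mean of 0.080 RPKM it lay below the filter and was not tested.

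**Figure D2:**
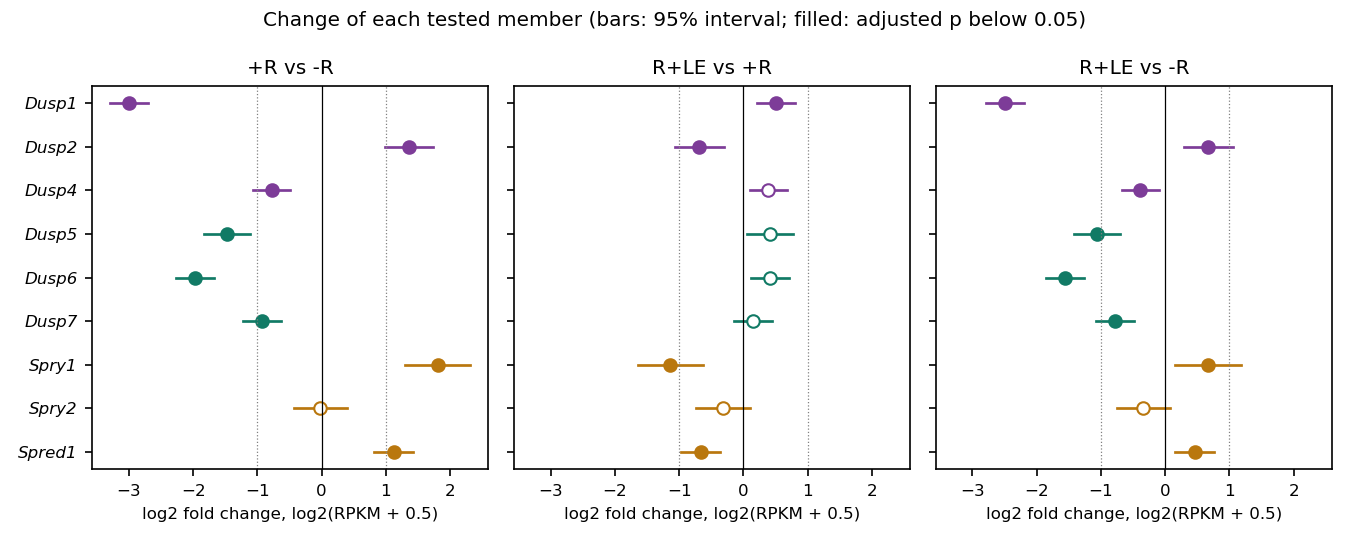
Log2 fold change (x axis, log2(RPKM + 0.5) scale) of the 9 tested members (y axis) in the 3 comparisons, with 95% intervals from limma. Filled points have an adjusted p-value below 0.05, dotted lines mark 2-fold changes, and the colours are those of the 3 roles. With RANKL the points reach from -3.00 for Dusp1 to 1.81 for Spry1, while with LE all lie between -1.14 and 0.51.

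To see how LE changed the feedback genes under RANKL, R+LE was compared with +R. The +R libraries enter this comparison and that of RANKL, and the values of each are given separately. Of the 9 tested members, 1 rose, 3 fell and 5 did not pass, or 1 rose and 2 fell among 8 without Spry1. Among all genes tested 12.0% passed, with 5.19% higher and 6.86% lower. Only Spry1 also passed the 2-fold threshold, against 3.23% of all genes, 1.78% as lower and 1.46% as higher. Without it, 0 of 8 passed. Spry1 reached the filter only through its level in +R, so its fall was favoured by the filter. It was under that threshold with a pseudocount of 1, and its call was lost without +R replicate 1. The libraries did not overlap for 8 of the 9, against 49.0% of all genes.

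The members that fell with LE were Spry1, Spred1 and Dusp2. The log2 fold change was -1.14 for Spry1 (standard error 0.24, adjusted p = 0.00515 in limma), where the ranges of 0.279 to 0.411 and 1.13 to 1.60 RPKM lay apart. Without +R replicate 1 the Spry1 value was -0.95 (adjusted p = 0.0556). For Spred1 it was -0.67 (standard error 0.14, adjusted p = 0.00532 in limma), and this fall passed under all 17 alternatives. Dusp2 changed by -0.68 (standard error 0.18, adjusted p = 0.0190 in limma). The Dusp2 call was lost without +R replicate 1 (adjusted p = 0.0807), +R replicate 2 (0.0578) or R+LE replicate 2 (0.101), and with no filter (0.109).

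Dusp1 was the member that rose with LE, by 0.51 ± 0.14 on the log2 scale (estimate and standard error, limma adjusted p = 0.0263). This call was the least stable of those with LE. It was lost without +R replicate 2 (log2 fold change 0.38), R+LE replicate 1 (0.49) or either -R library (0.51). The Dusp1 call was also lost with no filter (limma adjusted p = 0.0814) and in a fit of only the compared groups (0.0585). For the ERK-selective phosphatases among the members, no change with LE passed in limma. Of these 3, 2 had an unadjusted p below 0.05 and voom passed 1. The log2 fold change was 0.42 for Dusp6 (adjusted p = 0.0640, 95% interval 0.12 to 0.71), 0.41 for Dusp5 (adjusted p = 0.140, 0.06 to 0.77) and 0.15 for Dusp7 (adjusted p = 0.613, -0.15 to 0.45). Dusp6 passed under 6 alternatives, among them voom (0.0378) and centring on the median (0.0165). Dusp4, at 0.39 (adjusted p = 0.0816, 95% interval 0.10 to 0.67), passed with centring on the median (0.0223) and with quantile normalization (0.0204). For Spry2 the value was -0.32 (adjusted p = 0.375, -0.73 to 0.10). Whether LE acted differently on ERK-selective and other phosphatases was not tested. The intervals of Dusp1 and Dusp4 overlap those of Dusp5, Dusp6 and Dusp7, whereas that of Dusp2 (-1.06 to -0.30) lies below all 3.

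When R+LE was compared with -R, 5 members were lower, 3 were higher and 1 did not pass, and without Spry1 5 of 8 were lower and 2 higher. This comparison shares its -R libraries with that of RANKL alone. Of all genes tested 34.3% passed, with 19.0% lower and 15.3% higher. The 2-fold threshold was passed by Dusp1, Dusp6 and Dusp5, all lower, against 10.3% of all genes, 6.36% as lower and 3.92% as higher. Dusp5 was under 2-fold with a pseudocount of 1 (-0.96 on the log2 scale), without -R replicate 1 (-0.98) and without R+LE replicate 2 (-0.87). Spry1 passed the threshold as higher with a pseudocount of 0.1 and with voom, which made 4 members. The log2 fold change was -2.49 for Dusp1 (adjusted p = 2.82e-09 in limma), -1.56 for Dusp6 (adjusted p = 4.20e-07) and -1.06 for Dusp5 (adjusted p = 0.000144). Dusp7 was lower by less, at -0.78 (adjusted p = 0.000468). Libraries did not overlap for any of the 9 tested members, against 65.5% of genes, although for Spry2 the nearest pair was 1.829 and 1.832 RPKM.

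The other 4 calls against -R were those of Dusp2, Spred1, Spry1 and Dusp4, and each was lost when some single libraries were left out. On the log2 scale Dusp2 was above -R in R+LE by 0.67 (limma adjusted p = 0.00813), Spred1 by 0.46 (adjusted p = 0.0207) and Spry1 by 0.67 (adjusted p = 0.0425). Per mapped read, Spry1 was 11.9 times as high as in -R (95% exact interval 4.35 to 45.6, counting error only), and with voom its log2 fold change was 3.26. Dusp4 was below -R, at -0.39 (adjusted p = 0.0372). Other settings also removed 2 of these calls. The Spry1 call was lost with a pseudocount of 1 (limma adjusted p = 0.0776), quantile normalization (0.278) and only the compared groups (0.0580). That of Dusp4 was lost with no variance trend (0.0566), only the compared groups (0.0588) and Rn45s left out of the depth (0.0750). With either -R library left out, the adjusted p of Spred1 was 0.0899 or more, that of Spry1 0.130 or more and that of Dusp4 0.0871 or more. Dusp2 missed the threshold without -R replicate 2 (0.0777) or R+LE replicate 1 (0.0506), Spry1 also without R+LE replicate 2 (0.153), and Dusp4 also without either +R library or R+LE replicate 2 (0.0573 to 0.107).

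RPKM is scaled to transcript length, so levels were set side by side between the genes. This scaling does not correct for reads from exon bases that Dusp5 and Spry1 share in GENCODE with genes on the other strand, where these were counted. Nor does it correct for the short Dusp5 transcript that was counted. In -R the order was Dusp1, Dusp6, Spred1, Dusp7, Dusp4, Dusp5, Spry2, Dusp2, Spry4 and Spry1, and the neighbours whose libraries overlapped were Dusp7 and Dusp4. In +R the order began with Spred1 at 90.2 ± 2.91 RPKM (SD, n = 2), followed by Dusp6 at 11.8 ± 0.551 and Dusp7 at 10.0 ± 0.329 RPKM (SD, n = 2 each). Dusp1, first in -R, came after Spred1, Dusp6, Dusp7 and Dusp4 in both +R and R+LE. Dusp7 and Dusp4 again overlapped in +R, as did Dusp5 and Spry2, while in R+LE it was Dusp2 and Spry2.

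The summed RPKM of the 6 phosphatases was 146.8 and 143.8 in the -R libraries, 43.1 in both of +R, and 56.3 and 51.5 in those of R+LE. The sum was therefore highest in -R and lowest in +R, with no overlap between the groups. Dusp1 made up 36.7% and 36.2% of it without RANKL, against 15.8% and 13.1% in +R and 16.3% and 17.3% with LE. Within these 6 phosphatases, the ratio of ERK-selective to other phosphatase RPKM was 1.06 and 1.03 without RANKL. It was 1.202 and 1.31 in +R and 1.29 and 1.24 with LE. Hence the ratio was lower in both -R libraries than in the other 4, and the +R and R+LE libraries overlapped. This direction rests on Dusp1, the largest term among the other phosphatases in -R. The ERK-selective sum fell from 75.5 and 73.0 RPKM in -R to 23.5 and 24.4 RPKM in +R. Beside Dusp1, Dusp4 fell by less than 2-fold and Dusp2 rose, so without Dusp1 the ratio was higher in -R than in +R. Of the summed Sprouty and Spred RPKM, Spred1 accounted for between 94.3% and 97.4% in the 6 libraries.

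**Figure D3:**
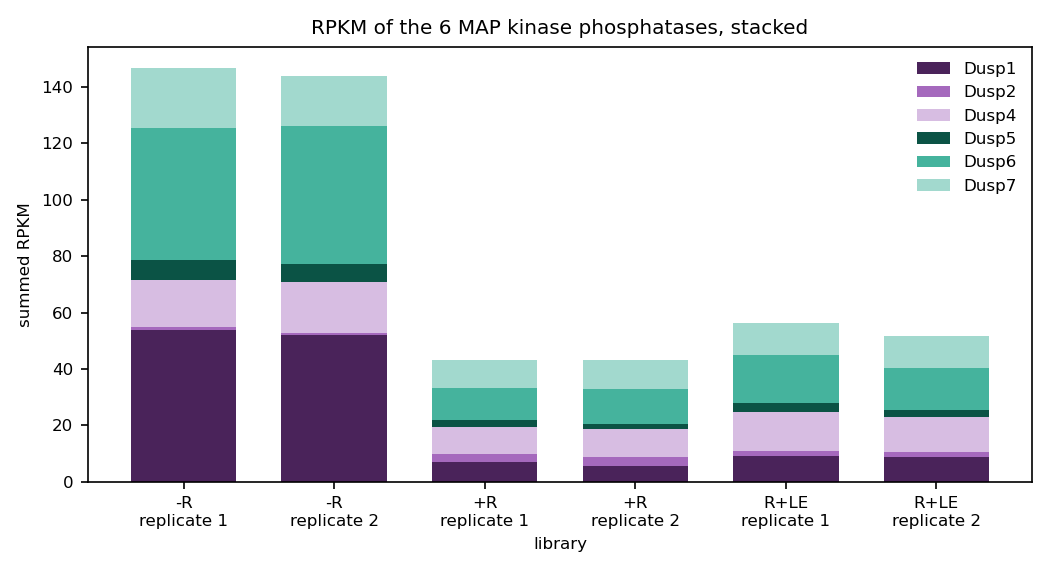
Stacked RPKM (y axis, from 0) of Dusp1, Dusp2, Dusp4 (purple shades) and Dusp5, Dusp6, Dusp7 (green shades) in each of the 6 libraries (x axis). The stacks are near 145 RPKM in -R and between 43.1 and 56.3 RPKM in the libraries with RANKL, and the Dusp1 segment shrinks most.

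Other brakes of the pathway were taken from a fixed list of 19 genes, of which 15 were tested. With RANKL 2 rose and 6 fell, against 23.9% and 21.5% of all genes, with a median log2 fold change of -0.23, against 0.05 for all genes tested. The largest rise was that of Dusp9, which encodes another ERK-selective phosphatase and went from 1.09 ± 0.057 RPKM in -R to 5.21 ± 0.898 in +R (SD, n = 2 each), which is 1.84 on the log2 scale (limma adjusted p = 2.04e-06). With LE Dusp9 fell to 2.89 ± 0.967 RPKM (SD, n = 2), or by 0.77 on the log2 scale (adjusted p = 0.0171). Dusp9 thus went opposite to Dusp5, Dusp6 and Dusp7 with RANKL. Dusp16, which encodes a phosphatase of JNK and p38, fell with RANKL by 1.15 on the log2 scale (adjusted p = 4.04e-05 in limma), from 4.95 ± 0.614 to 1.96 ± 0.199 RPKM (SD, n = 2 each), and was at 1.94 ± 0.255 RPKM in R+LE. With LE, 0 of the 15 rose and 2 fell in limma, against 5.19% and 6.86% of all genes tested. Of the 15, 3 had an unadjusted p below 0.05 and voom passed 2. The other one to fall with LE was Cblb, which encodes a ubiquitin ligase that dampens receptor signalling, with -0.62 on the log2 scale (adjusted p = 0.0119). Against -R, 3 of these brakes were at least 2-fold lower in R+LE, namely Dusp3, a small phosphatase gene, Dusp16 and Cblb, with log2 fold changes of -1.21, -1.16 and -1.33. Dusp9 was 2-fold higher, at 1.06 (adjusted p = 0.000597), and among all genes 6.36% were called lower and 3.92% higher.

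The ERK cascade itself, listed as 24 genes from receptors and adaptors to kinases and all tested, moved less. With RANKL 8 fell and none rose, against 21.5% and 23.9% of all genes, and the median on the log2 scale was -0.10. Gab2, an adaptor gene, was more than 2-fold lower with RANKL and LE than in -R, at -1.27 on the log2 scale (adjusted p = 5.84e-06). With LE none of the 24 passed in limma, against 12.0% of all genes tested. Of the 24, 3 had an unadjusted p below 0.05 and voom passed 1. In the list of the p38 and JNK branches, 12 of 14 genes were tested, of which 3 rose and 2 fell with RANKL, a share near the 45.4% of all genes that passed. Jun fell from 50.8 ± 2.84 to 15.2 ± 1.14 RPKM, and Mapk11, which encodes p38 beta, rose from 1.39 ± 0.149 to 3.70 ± 0.171 RPKM (SD, n = 2 each). None of the 12 passed with LE in limma, against the same 12.0% of all genes. Of the 12, 2 had an unadjusted p below 0.05 and voom passed 0.

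Genes known as outputs of ERK signalling, other than the members, were followed in a list of 17, of which 15 were tested. With RANKL 9 fell and 2 rose, against 21.5% and 23.9% of all genes, and the median on the log2 scale was -0.90. At 2-fold or more, 6 fell and 1 rose, against 8.92% and 6.58% of all genes. Egr3, an early response gene, passed the filter only through +R, and without it 9 of 14 fell and 1 rose. Etv5, which encodes an ETS factor induced by ERK, fell from 39.2 ± 1.97 to 8.00 ± 0.296 RPKM (SD, n = 2 each), or by 2.22 on the log2 scale (limma adjusted p = 2.99e-09). Emp1, a membrane protein gene, fell from 148.2 ± 9.82 to 36.6 ± 6.17 RPKM, and Ier3, an early response gene, from 7.86 ± 0.130 to 1.19 ± 0.488 RPKM (SD, n = 2 each). Fosl1, Plaur and Ier2 were the other 3 that fell by 2-fold or more, with log2 fold changes of -1.51, -1.32 and -1.04.

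With LE, 5 of these 15 output genes rose and 2 fell, with a median log2 fold change of 0.18, against -0.05 for all genes, of which 5.19% rose and 6.86% fell. Without Egr3, whose fall was favoured by the filter, 5 of 14 rose and 1 fell, with a median of 0.22. Fosl1, which encodes the AP-1 subunit Fra-1, was at 5.37 ± 0.451 RPKM without RANKL, 1.56 ± 0.122 RPKM in +R and 5.16 ± 0.0021 RPKM with LE (SD, n = 2 each), and its log2 fold change with LE was 1.46 (adjusted p = 9.65e-06 in limma). Epha2, a receptor tyrosine kinase gene, rose from 2.23 ± 0.153 to 7.25 ± 0.127 RPKM (SD, n = 2 each), above its level of 3.29 ± 0.091 in -R, or by 1.51 on the log2 scale (adjusted p = 5.84e-06). Plaur, which encodes the urokinase receptor, and Ier3 rose by less than 2-fold, with log2 fold changes of 0.97 and 0.83 (adjusted p = 0.00116 and 0.00784). The 2 that fell were Egr1 and Egr3, both zinc finger early response genes, with log2 fold changes of -1.14 and -1.32 (adjusted p = 0.000543 and 0.00187). Etv5 was at 9.66 ± 0.168 RPKM in R+LE (SD, n = 2), and its log2 fold change with LE was 0.26 (adjusted p = 0.268).

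**Figure D4:**
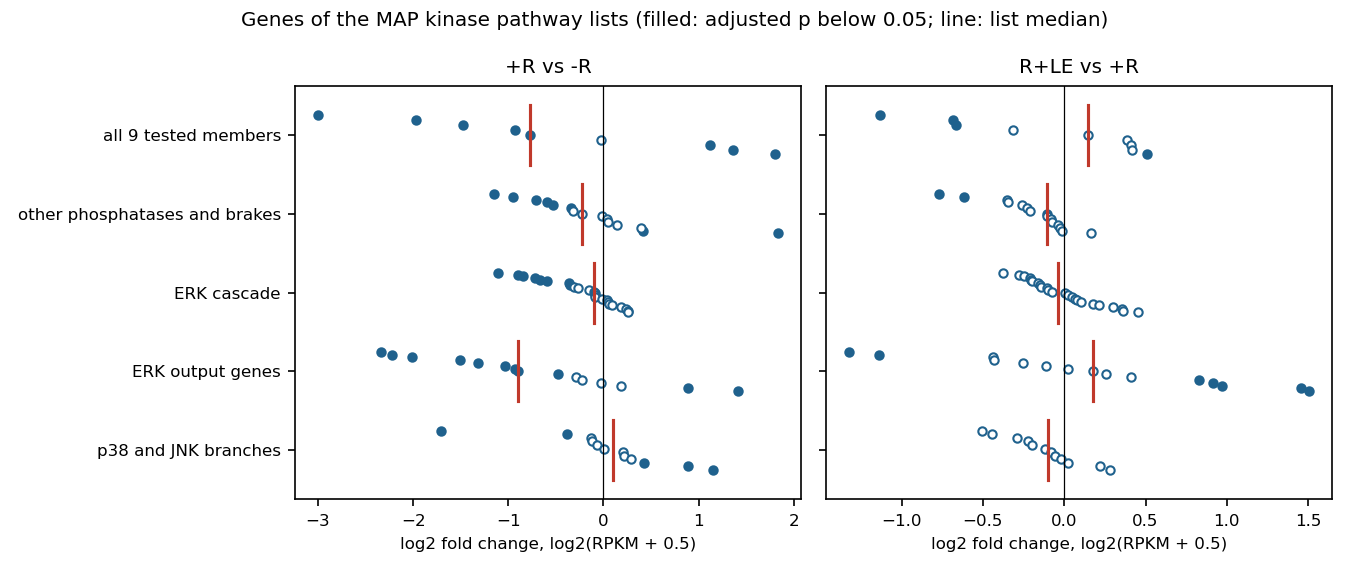
Log2 fold change (x axis, log2(RPKM + 0.5) scale) of each tested gene of the members and the 4 pathway lists (y axis), for RANKL (left) and for LE under RANKL (right). Filled points have an adjusted p-value below 0.05 and the red line is the list's median, which with RANKL is -0.77 for the members, -0.90 for the ERK output genes and -0.10 for the ERK cascade.

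Members were also compared by profile, as the root mean square difference of log2(RPKM + 0.5) over the 6 libraries after centring each gene. The closest pair of members was Dusp2 and Spred1, at 0.15, followed by Dusp4 and Dusp7 at 0.20. Over all 11595 genes, Dusp6 was closest to Hlx, a homeobox gene that went from 7.85 and 7.98 RPKM in -R to 1.48 and 1.66 RPKM in +R and 2.47 and 2.01 RPKM in R+LE (difference 0.04), and next to Gpr157 (0.06). Dusp1 was closest to Tmem8 (0.07) and Fabp3 (0.11), and Dusp5 to Cd48 (0.04) and Lgals3 (0.05). Dusp2 was nearest to Fdps and 1700003E16Rik (0.06 each), Spred1 to Ublcp1 (0.05) and Lpin1 (0.07), and Spry1 to Sema7a (0.10) and Dnmt3a (0.11). With 6 libraries in 3 groups, many genes share such a shape. The added 0.5 RPKM also shrinks changes of genes with low values, so close profiles can hold unlike changes in RPKM. Spry1 was 47.3 times as high per mapped read in +R as in -R. Its match Dnmt3a went from 11.9 and 13.0 RPKM in -R to 45.7 and 43.2 RPKM in +R.

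The 3′ untranslated regions were searched for the pentamer ATTTA, the core of the AU-rich elements that are known from short-lived mRNAs. Over 9984 tested genes the median was 1 pentamer, or 1.27 per kb. Dusp1 had 4 in 690 nt and Dusp2 had 4 in 581 nt, densities above those of 95.2% and 97.0% of the genes. These 2 genes moved in opposite directions with RANKL. Spred1 had 12 in 4330 nt and Spry4 had 7 in 3559 nt. Dusp6 and Dusp5 had 1 each, and Dusp7 had 0. At least 3 pentamers were found in 4 of the 10 members, against 33.8% of the genes.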

How the data were processed

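RNA from 6 cultures of BMMs was sequenced from both ends of the fragments on an Illumina HiSeq instrument. The paper states alignment to mm10 with TopHat, whereas the submitters' processing notes list HISAT2. Versions are not given in the sources used here. The authors counted exon reads of 1 transcript per gene on either strand with HOMER, and deposited RPKM values under column titles that say FPKM. In the gene column 26 symbols had become dates, and all 26 were restored from transcript identifiers.

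To recover read numbers, the smallest step between low RPKM values was combined with each transcript length. At least 99.99% of the values checked in each library were whole within 0.02 reads beside the rounding of the file, so 3 reads on 1 kb correspond to between 0.0861 and 0.102 RPKM. Replicates differed by more than counting noise (mean chi-square per gene of 14.6 to 32.1), so each was kept as a library.

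Groups came from the sample titles. The log2(RPKM + 0.5) values of 11595 genes whose mean over the 6 libraries reached 0.5 RPKM were fitted together with limma 3.58.1 (R 4.3.3), with a variance trend and Benjamini-Hochberg adjustment, and the fit was tested on simulated data. Tables were handled in Python version 3.11.15 with pandas 2.3.3, numpy 2.4.6 and scipy 1.17.1, and figures with matplotlib 3.10.9. The 2-fold threshold follows the paper. Transcript and exon features came from GENCODE (GRCm38). The members and the gene lists were chosen with earlier results of these data known. Named beside the members are list genes called 2-fold in any comparison and the 2 genes closest to each such member. A further list gene that met this rule is not reported here. The alternatives were 2 other pseudocounts, 2 other filters, no variance trend, only the compared groups, 3 other scalings, voom on recovered reads, the replicate number as a block and each library left out.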

Additional observations from a re-analysis of the deposited data

How the results depend on the processing

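The alternatives gave 456 values for the 27 log2 fold changes of the members. Of the 337 that belong to the 20 changes past the threshold, 308 also passed in the same direction, 29 no longer passed and none turned direction. For RANKL, 1797 genes were called 2-fold, with 1518 as the lowest (pseudocount of 1) and 2138 as the highest number (voom). For LE the range was 275 to 525, against 375, and for R+LE against -R it was 956 to 1504, against 1192, between the same 2 settings. The count of members called 2-fold with LE, which was 1, was 0 with a pseudocount of 1 and 0 with a filter of a mean of 1 RPKM, under which Spry1 was not tested, and ranged from 0 to 1 with each library left out. For Spry2 the log2 fold change with RANKL was 0.029 with Rn45s left out of the depth, and ranged from -0.16 to 0.12 with each library left out. The cause was not tested. With the replicate number as a block, 1801, 389 and 1200 genes were called in the 3 comparisons, and among the members the change of Dusp6 with LE passed (adjusted p = 0.0405) while no other call changed. The differences between replicates 1 and 2 correlated across 11595 genes with r = -0.046 between -R and +R and 0.107 between -R and R+LE. Between +R and R+LE, the groups of the LE comparison, r was highest, at 0.249. Whether replicates of the same number share a source was not tested, and the main fit did not pair the samples. Depth limits Spry1 and Spry4, with at most 106 and 31 reads in a library.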
